A study of Homo sapiens with 5 samples.

Results

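ZNF mRNAs encode zinc finger proteins, most of them DNA-binding proteins of the C2H2 class. They were taken here as the genes whose symbol is ZNF, a number and at most 1 capital letter, averaging 10 CPM or more (counts scaled to a common library total) over the 2 input libraries and a listed length of at most 12000 bases. This rule gave 112 genes, of 525 with such a symbol and 25702 genes in the table. Of the other ZNF symbols, 2 reached the input limit but were too long, 345 (those 2 included) fell outside the limits and were still measured well enough to test, and 68 were not tested. The members were thus chosen by symbol, length and measured input level. Because the comparison of PSF-RIP with input uses those same inputs, every count in it is a description, set beside 3849 other protein-coding mRNAs that meet the same limits.

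Many C2H2 zinc finger proteins carry a KRAB domain, which recruits the co-repressor TRIM28 and, through it, the histone methyltransferase SETDB1 and HP1 proteins to form heterochromatin, in large part over transposable elements. Their genes have multiplied by tandem duplication, and chromosome 19 holds the largest clusters. PSF, the product of the SFPQ gene, binds RNA in the nucleus, is a core component of paraspeckles and takes part in splicing and transcription.

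The cells were LTAD, a human prostate cancer line derived from LNCaP cells by long-term androgen deprivation and grown here in hormone-stripped serum, and all groups share that background. RNA bound to PSF was immunoprecipitated (PSF-RIP) from cells given the small molecule No.10-3 at 5 µM (2 libraries) or the DMSO vehicle (1 library), and total input RNA was sequenced in 2 libraries. By the labels 1 input came from No.10-3 cells and 1 from vehicle cells, but the column names do not say which, so the 2 inputs served as 1 reference. The labels list no control immunoprecipitation among these samples. They also do not say whether libraries of a group came from separate cultures. The p-values thus measure only the spread between these libraries, which may be technical and is taken largely from all genes together.

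Library totals ran between 1519362 and 3368252 counts in the 3 PSF-RIP libraries and were 4010376 and 3083063 counts in the inputs. Small structured RNAs took 3.60% to 13.6% of the PSF-RIP counts, against 56.2% and 58.7% of the input counts, and nuclear protein-coding genes took 73.6% to 82.1%, against 16.4% and 15.9%. Levels are therefore given as scaled CPM, in which edgeR's TMM factors bring the bulk of the genes to the same level, and log2 values are relative to that bulk. This choice sets the direction. ZNF members took 0.778% and 1.12% of all counts with No.10-3 PSF-RIP, 0.807% with vehicle PSF-RIP, and 0.262% and 0.233% of the inputs, so on library totals most mRNAs, members included, are higher in PSF-RIP. The second No.10-3 library lay nearer to the inputs than the other PSF-RIP libraries did. Over the members its log2 levels had a Pearson correlation of 0.757 and 0.730 with the inputs, against 0.50 and 0.498 for the first No.10-3 library and 0.448 and 0.415 for vehicle (n = 112 genes, which share libraries and are not replicates). Luminal prostate markers summed to 1716 to 1954 scaled CPM in PSF-RIP and 1792 and 1984 scaled CPM in input, while the basal markers KRT5 and TP63, the immune markers PTPRC and CD3E, the stromal marker DCN and the neuroendocrine markers CHGA and INSM1 were at 0 in every library. The other lists were not empty. The 4 stromal genes summed to 24.8 to 39.1 scaled CPM in PSF-RIP, nearly all of it COL1A1, against 9.66 and 5.33 scaled CPM in input. The 2 endothelial genes summed to 2.89 to 8.14 in PSF-RIP against 3.22 and 0.889 in input, the 3 immune genes to 2.38 to 4.04 against 1.93 and 1.78, the 4 neuroendocrine genes to 3.58 to 4.81 against 3.22 and 8.89, and the 3 basal genes to at most 0.578 against 0. Their part in the results was not tested.

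No member was at 0 in any library. The lowest, median and highest member counts were 10, 60.5 and 799 in the first No.10-3 library, 73, 242.5 and 1967 in the second, 17, 94.5 and 1137 with vehicle, and 33, 69 and 508, and 21, 42 and 447, in the inputs. Of the 112 members, 109 are annotated as protein-coding and 3 (ZNF271P, ZNF252P and ZNF542P) as transcribed pseudogenes. The listed lengths ran between 1279 and 11553 bases with a median of 4778. Per kilobase of listed length, the mean input level spanned 2.85 scaled CPM for ZNF445, a KRAB protein that maintains genomic imprints, to 97.6 scaled CPM for ZNF32. Many C2H2 genes have near-identical copies, and how reads that map to several places were counted is not given in the sources used here, so the values of recent duplicates on chromosome 19 are uncertain.

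The members just inside the input limit were ZNF286A at 10.1 CPM and ZNF268 at 10.2 CPM, and just outside it lay ZNF611 at 9.96 CPM and ZNF625 at 9.94 CPM. At the length limit, ZNF652 (11553 bases) and ZNF106 (10460 bases) were inside, and ZNF264 (12163 bases) and ZNF704 (14386 bases) outside.

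Most ZNF mRNAs were lower in PSF-RIP than in input once the libraries were scaled. The median log2 PSF-RIP over input was -0.82, with a range of -2.62 to 1.31, and 85 of 112 members lay below 0. By edgeR's quasi-likelihood test with Benjamini-Hochberg adjustment at 0.05 over all 13321 genes tested, 44 members fell, where 13.6% of all genes tested were called lower, 4 rose, where 12% were called higher, and 64 were not called.

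**Figure D1:**
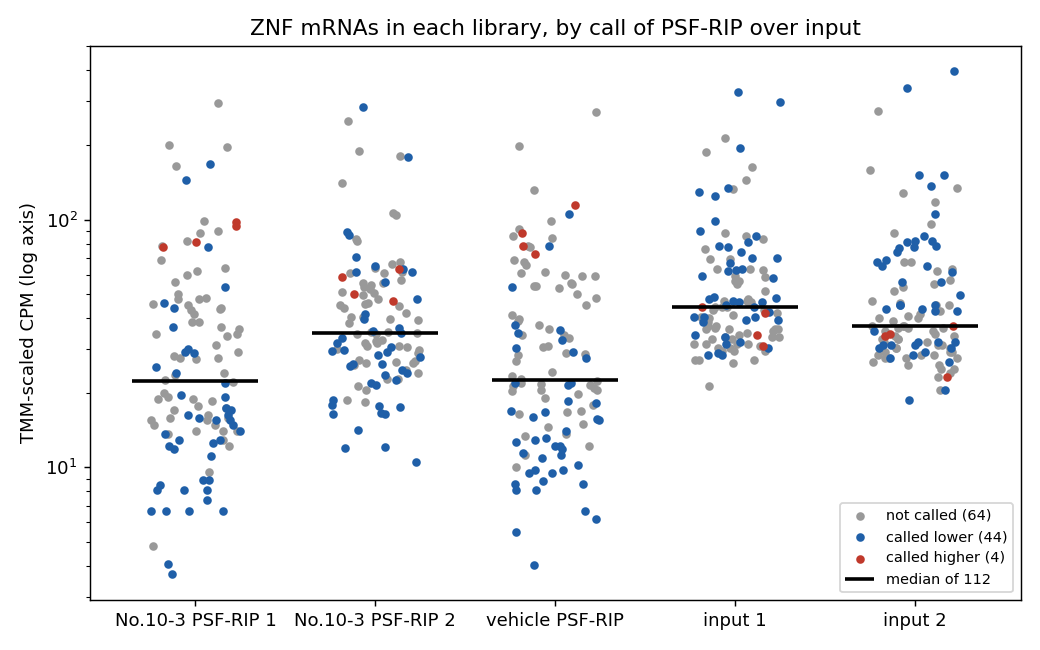
Scaled CPM (log axis) of the 112 ZNF mRNAs in the No.10-3 PSF-RIP, vehicle PSF-RIP and input libraries. Each point is a gene, coloured by its call for PSF-RIP over input, and the bar is the median, which was 22.4 and 35.01 with No.10-3, 22.5 with vehicle, and 44.4 and 37.3 in the inputs.

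These calls are 39.3% of the members lower and 3.57% higher. The other mRNAs under the same limits had a median of -0.28, with 968 of 3849 (25.1%) called lower and 387 (10.1%) called higher. That set holds protein-coding genes only, while the members include the 3 transcribed pseudogenes, each of which was called lower. All 3 PSF-RIP libraries lay below both inputs for 62 members, as for 25.1% of all genes tested and 36.6% of the other mRNAs under the same limits, and above both for 15 members, as for 30.1% of all genes tested. Taken library by library, the members' median over input was -0.96 in the first No.10-3 library, -0.27 in the second and -0.99 with vehicle. The second No.10-3 library thus sat closest to the input level for this family too.

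How many members were called depended on which libraries were fitted. The members' median log2 was -0.82 with all libraries, -0.81 without the first input and -0.80 without the second. It was -0.61 without vehicle PSF-RIP, -0.68 without the first No.10-3 library and -1.01 without the second. Without the first input 14 members were called lower, where 6.37% of all genes tested were, and without the second input 14 were as well, where 4.07% were. Without vehicle PSF-RIP 18 were called lower (6.3% of all genes), and without the second No.10-3 library 70 were (21.9% of all genes). With either input or vehicle left out, no member was called higher, where 2.28%, 0.489% and 4.38% of all genes were, while 10 were without the second No.10-3 library, where 20.3% of all genes were. Without the first No.10-3 library 51 members were called lower and 6 higher, where 17.7% and 16.6% of all genes were. ZNF121, ZNF124, ZNF253, ZNF260, ZNF737, ZNF883, ZNF91 and ZNF92 are the 8 members called lower in the fit of all libraries and in each of 12 alternative settings other than scaling by library totals.

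The members were also set beside other mRNAs of like input level and length. At 10 to 12 input CPM the median log2 PSF-RIP over input was -0.66 for the ZNF genes and -0.02 for the others. It was -0.66 for ZNF genes and -0.14 for others at 12 to 20 CPM, and -1.17 and -0.48 above 20 CPM. By length, ZNF genes had medians of -0.61 up to 3000 bases, -0.77 up to 5000, -0.92 up to 7000 and -0.82 above that, while the others had -0.42, -0.27, -0.15 and -0.12. In each of these ranges the ZNF median was below that of the other mRNAs.

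The lowest member was ZNF883. It had 8.14 and 21.5 scaled CPM in No.10-3 PSF-RIP and 6.67 scaled CPM in vehicle PSF-RIP, against 57.9 and 67.6 scaled CPM in input. All PSF-RIP values lay under both inputs, as for 25.1% of all genes tested. The log2 PSF-RIP over input was -2.62 ± 0.41 (SE, edgeR adjusted p = 1.82e-05).

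ZNF260 had 11.8 and 29.9 scaled CPM with No.10-3 and 8.10 scaled CPM with vehicle in PSF-RIP, against 77.3 and 68.5 scaled CPM in input (log2 -2.47 ± 0.40, edgeR adjusted p = 2.88e-05). ZNF92 had 3.70 and 10.5 scaled CPM with No.10-3 and 4.05 scaled CPM with vehicle, against 32.2 and 27.6 scaled CPM in input (log2 -2.43). ZNF124 had 14.1 and 11.98 scaled CPM with No.10-3 and 8.58 scaled CPM with vehicle, against 40.6 and 56.0 scaled CPM in input (log2 -2.19). The groups did not overlap for any of these 3 genes. They were picked for low values, and in 25.1% of all genes tested every PSF-RIP library lay below both inputs. ZNF124 is the one of the 3 whose treated libraries were close to each other.

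ZNF91, a KRAB protein known to repress SVA retrotransposons, is one of the 6 members with the highest input CPM, taken without regard to length. It had 19.6 and 88.8 scaled CPM in No.10-3 PSF-RIP and 34.8 scaled CPM in vehicle PSF-RIP, against 195 and 152 scaled CPM in input (log2 -1.99 ± 0.42, edgeR adjusted p = 8.76e-04). Its treated libraries stood on either side of vehicle, and all were under the inputs, as for 25.1% of all genes tested. The transcribed pseudogene ZNF271P had 15.9 and 30.8 scaled CPM with No.10-3 and 9.77 scaled CPM with vehicle in PSF-RIP, against 63.1 and 73.8 scaled CPM in input (log2 -2.16), and ZNF737 and ZNF253 had log2 values of -2.17 and -1.98.

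The 4 members that rose were ZNF142, ZNF513, ZNF646 and ZNF592. ZNF142, which is mutated in a neurodevelopmental disorder, had 81.4 and 49.96 scaled CPM in No.10-3 PSF-RIP and 78.4 scaled CPM in vehicle PSF-RIP, against 34.1 and 23.1 scaled CPM in input (log2 1.31 ± 0.39, edgeR adjusted p = 0.0126). ZNF513, linked to retinitis pigmentosa, had 98.0 and 63.0 scaled CPM with No.10-3 and 114 scaled CPM with vehicle, against 44.4 and 34.7 scaled CPM in input (log2 1.27 ± 0.38, edgeR adjusted p = 0.0138). For both, all PSF-RIP libraries lay above both inputs, as for 30.1% of all genes tested, with the second No.10-3 library lowest of the 3.

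ZNF646 had 77.7 and 46.8 scaled CPM with No.10-3 and 72.5 scaled CPM with vehicle in PSF-RIP, against 30.9 and 33.8 scaled CPM in input (log2 1.05, edgeR adjusted p = 0.0389). ZNF592, a partner of ZNF532 in a chromatin complex with ZMYND8, had 93.9 and 58.9 scaled CPM with No.10-3 and 88.4 scaled CPM with vehicle, against 41.8 and 37.3 scaled CPM in input (log2 1.05, edgeR adjusted p = 0.0381). The groups again did not overlap, in genes picked for high values. In 30.1% of all genes tested every PSF-RIP library lay above both inputs. The next 8 members did not pass the test: ZNF558, ZNF266, ZNF862, ZNF618, ZNF384, ZNF740, ZNF358 and ZNF274 had log2 values of 0.91 to 0.62. ZNF274 is the KRAB protein that binds ZNF genes themselves and recruits SETDB1 there. ZNF358 had 296 and 105 scaled CPM with No.10-3 and 271 scaled CPM with vehicle, against 133 and 158 scaled CPM in input, so its second treated library lay under the inputs and the groups overlapped.

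**Figure D2:**
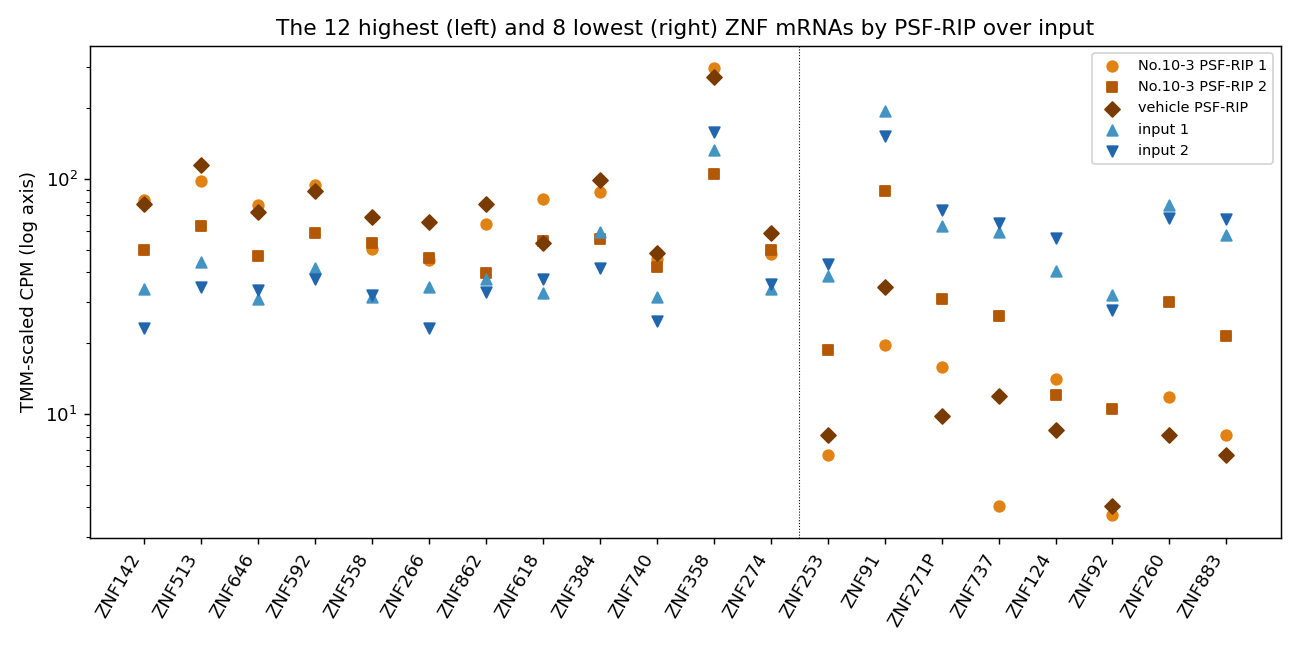
Scaled CPM (log axis) in each library for the 12 members with the highest and the 8 with the lowest log2 PSF-RIP over input. PSF-RIP libraries (browns) lie below the inputs (blues) for all 8 on the right, as for 25.1% of all genes tested. Those 8 were picked for low values. For ZNF91 the second No.10-3 library, at 88.8, comes nearest to the inputs.

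The promoters of the 2 highest and 2 lowest members are shown for the base composition described after them. Each runs 250 bases upstream to 50 bases past the annotated start on the gene's strand, from RefSeq (GRCh38.p14, a later build than the files' hg19), with the 50 transcribed bases in capitals. ZNF142 lies at chr2:218659574-218659873 (minus strand, 66.3% G or C), ZNF513 at chr2:27380685-27380984 (minus, 70.7%), ZNF883 at chr9:113012143-113012442 (minus, 47.7%) and ZNF260 at chr19:36528222-36528521 (minus, 59.7%).
ZNF142: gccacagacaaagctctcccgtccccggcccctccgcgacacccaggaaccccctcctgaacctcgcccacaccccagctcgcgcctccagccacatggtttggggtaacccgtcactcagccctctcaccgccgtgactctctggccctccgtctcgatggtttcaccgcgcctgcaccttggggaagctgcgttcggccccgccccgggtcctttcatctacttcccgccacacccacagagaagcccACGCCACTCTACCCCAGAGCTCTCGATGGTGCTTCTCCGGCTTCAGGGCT
ZNF513: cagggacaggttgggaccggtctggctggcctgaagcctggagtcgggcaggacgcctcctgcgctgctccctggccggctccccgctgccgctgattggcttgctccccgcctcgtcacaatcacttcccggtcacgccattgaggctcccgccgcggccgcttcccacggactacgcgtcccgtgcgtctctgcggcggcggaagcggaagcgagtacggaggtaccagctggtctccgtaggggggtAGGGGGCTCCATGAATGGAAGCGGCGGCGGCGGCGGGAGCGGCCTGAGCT
ZNF883: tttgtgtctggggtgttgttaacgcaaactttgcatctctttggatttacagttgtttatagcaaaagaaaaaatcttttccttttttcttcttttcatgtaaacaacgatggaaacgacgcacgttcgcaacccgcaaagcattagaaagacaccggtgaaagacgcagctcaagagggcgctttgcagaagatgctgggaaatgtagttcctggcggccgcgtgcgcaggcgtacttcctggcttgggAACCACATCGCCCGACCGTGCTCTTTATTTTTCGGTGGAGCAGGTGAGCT
ZNF260: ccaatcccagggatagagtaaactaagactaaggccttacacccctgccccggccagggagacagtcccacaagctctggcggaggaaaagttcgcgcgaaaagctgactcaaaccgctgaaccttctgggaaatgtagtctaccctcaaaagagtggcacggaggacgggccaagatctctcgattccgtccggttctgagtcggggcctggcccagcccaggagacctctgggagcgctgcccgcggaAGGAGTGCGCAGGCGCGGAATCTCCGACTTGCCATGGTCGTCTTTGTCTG

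A first-listed promoter was found for 99 of 112 members and for 3238 of the 3849 other mRNAs. The median G or C content was 62.3% for the members and 66.3% for the others. Among members it was 68.5% for the 4 called higher, 61.5% for 36 called lower and 63.7% for 59 not called. Across the 99 members, promoter G or C content and log2 PSF-RIP over input had a Pearson correlation of 0.26 and a Spearman correlation of 0.23, against 0.16 and 0.15 across the other mRNAs, as a description over genes that share libraries. With either strand searched and the motifs free to overlap, CCGGAAG, the core bound by ETS factors, was present in 36.4% of member promoters, 21.3% of the other mRNAs' promoters and 10.7% of 27305 first-listed promoters in the table. The GC box GGGCGG was present in 60.6%, 73.4% and 44.6%, CCAAT in 44.4%, 39.0% and 35.7%, and TATAAA in 6.06%, 4.91% and 11.95%, of those same 3 sets. A match is a run of letters and was not tested as a binding site.

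The 50 members on chromosome 19 had a median log2 PSF-RIP over input of -1.01, with 23 (46%) called lower and 0 higher. Among all tested genes on chromosome 19, 7.19% were called lower and 22.7% higher. The 62 members on other chromosomes had a median of -0.65, with 21 (33.9%) called lower and 4 (6.45%) higher. Over all genes tested, on any chromosome, 13.6% were called lower and 12% higher. Other mRNAs under the same limits ran the other way between these places. On chromosome 19 their median was 0.48, with 13 of 199 (6.53%) called lower and 56 (28.1%) higher. Elsewhere their median was -0.34, with 26.2% called lower and 9.07% higher. The gap between members and neighbours of other families on chromosome 19 is a description, since the lists themselves were not tested.

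**Figure D3:**
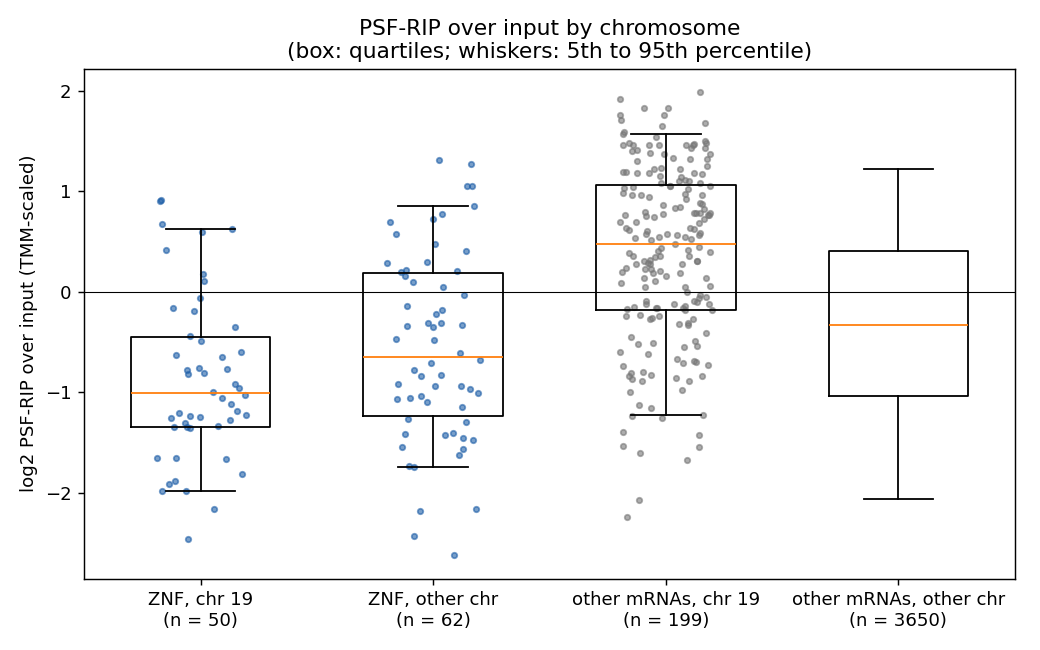
Log2 PSF-RIP over input (TMM-scaled) for ZNF members and other mRNAs under the same limits, on chromosome 19 and elsewhere. Boxes are quartiles, whiskers run from the 5th to the 95th percentile, and points are genes (not drawn for the last group); the ZNF medians are -1.01 and -0.65 and the others' 0.48 and -0.34.

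The protein-coding members on chromosome 19 were grouped into runs. Neighbours in a run lay at most 10 places apart in the RefSeq order of protein-coding genes (GRCh38.p14). The pseudogene ZNF542P (log2 -1.33, called lower) is on this chromosome but in no run. A run of 9 between ZNF506 and ZNF507 holds ZNF253, ZNF737, ZNF714, ZNF708, ZNF676, ZNF91 and ZNF254. All 9 lay below 0, between -2.17 and -1.19 with a median of -1.66, and 8 were called lower. On chromosome 19, 46% of the members and 7.19% of all tested genes were called lower. The runs described were picked after their values were seen. The exception, ZNF708, had a log2 value of -1.21 and missed the threshold.

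The run of 6 between ZNF558 and ZNF562 was mixed. ZNF558, ZNF317 and ZNF266 lay above 0 and ZNF121, ZNF561 and ZNF562 below it, with ZNF121 at -1.89, and 2 were called lower. The largest run, 15 members between ZNF649 and ZNF331, had a median of -0.77. In it 12 members lay below 0 and 4 were called lower, while ZNF331, an imprinted gene, was highest at 0.60 without passing the test. Of ZNF805, ZNF460, ZNF543 and ZNF772, 3 were called lower. Beside these counts, 46% of the members on chromosome 19 and 13.6% of all genes tested were called lower. Values within a run may come from related sequences, which were not compared, and are not treated as independent of one another.

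**Figure D4:**
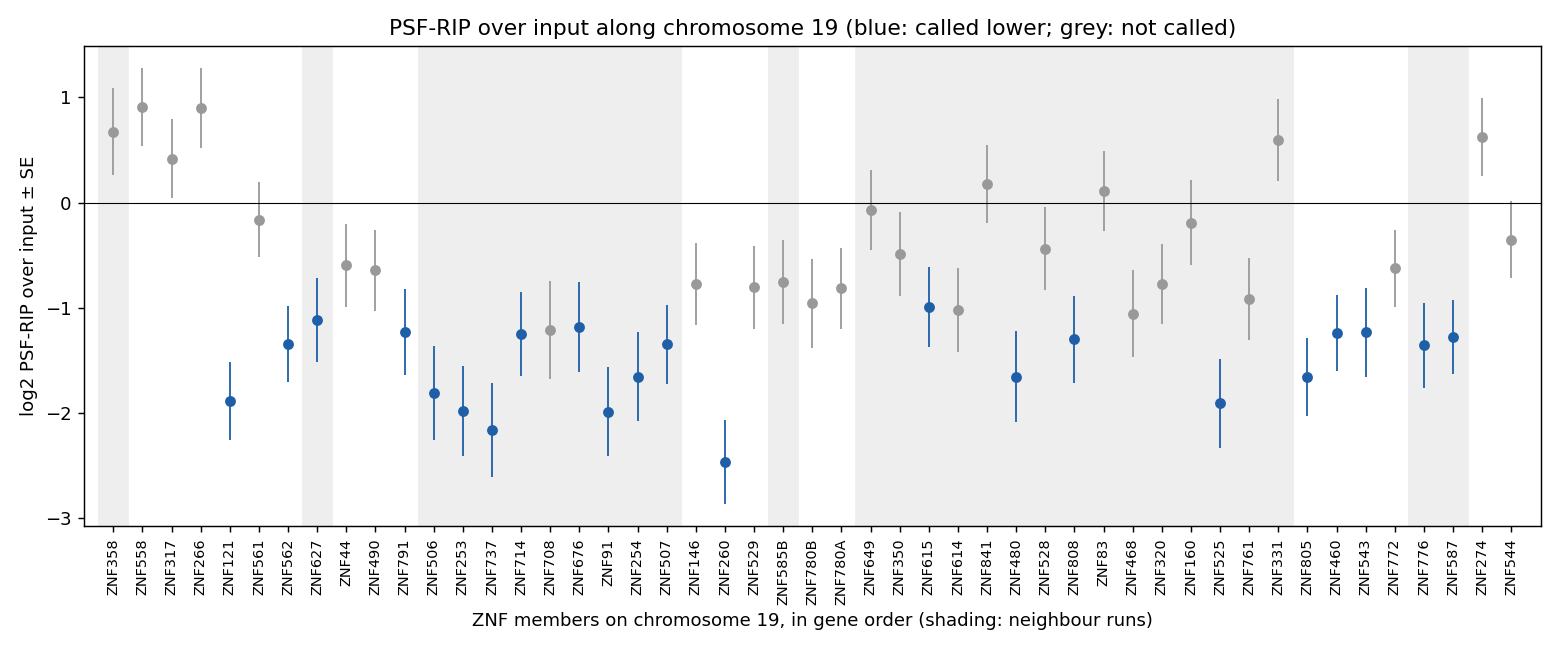
Log2 PSF-RIP over input with its standard error for the protein-coding ZNF members on chromosome 19, in gene order, with shading marking runs of neighbours. The run ZNF506 to ZNF507 lies wholly below 0, between -2.17 and -1.19, while ZNF558 to ZNF562 spans -1.89 to 0.91.

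The members with the highest input CPM, taken without regard to length, differed among themselves. ZNF385B had 144 and 179 scaled CPM in No.10-3 PSF-RIP and 105 scaled CPM in vehicle PSF-RIP, against 327 and 397 scaled CPM in input, and fell (log2 -1.47, edgeR adjusted p = 0.00467). ZNF652, a transcriptional repressor, also fell (log2 -1.26, edgeR adjusted p = 0.0148). It had 168 and 284 scaled CPM with No.10-3 and 78.2 scaled CPM with vehicle, against 299 and 340 scaled CPM in input. These 2 genes were below input in every PSF-RIP library, as were 25.1% of all genes tested.

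ZNF532, the partner of ZNF592, had 200 and 189 scaled CPM in No.10-3 PSF-RIP and 198 scaled CPM in vehicle PSF-RIP, against 187 and 134 scaled CPM in input (log2 0.29, edgeR adjusted p = 0.602). ZNF217, which is often amplified in breast cancer, had 99.1 and 141 scaled CPM with No.10-3 and 91.5 scaled CPM with vehicle, against 164 and 128 scaled CPM in input (log2 -0.48, edgeR adjusted p = 0.351). The PSF-RIP libraries of these 2 genes overlapped or closely neighboured the inputs, in contrast to ZNF91 and ZNF385B.

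Genes for KRAB co-repressors and for heterochromatin in general were taken without the input and length limits of the members. Of 33 measured co-repressor and heterochromatin genes, 9 rose and 3 fell in PSF-RIP over input, where 12% of all genes tested were called higher and 13.6% lower, and 21 were not called. Their median log2 was 0.49, against 0.05 over all genes tested. The 18 of them that meet the members' limits had a median of 0.26, with 5 called higher and 2 lower, beside -0.28 for other mRNAs under those limits, and the 15 outside the limits had a median of 0.66, beside 0.35 for other protein-coding mRNAs outside them. TRIM28, the KRAB co-repressor itself, had 140 and 98.2 scaled CPM with No.10-3 and 159 scaled CPM with vehicle, against 48.9 and 34.7 scaled CPM in input (log2 1.71, edgeR adjusted p = 0.00177). SETDB1, EHMT1 and EHMT2, which methylate histone H3, had log2 values of 1.20, 1.31 and 2.56, the maintenance DNA methyltransferase DNMT1 1.95, and the remodellers CHD3 and CHD4 1.33 and 1.54, and MORC2 and MTA2 rose as well. The HP1 genes CBX5 (log2 -1.63) and CBX3 (log2 -0.97) and the methyltransferase SUV39H2 (log2 -1.35) fell. In the inputs EHMT2 had only 8 and 10 counts, DNMT1 29 and 10, and SUV39H2 28 and 20, so their log2 values are imprecise.

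No.10-3 was compared with vehicle within PSF-RIP. The inputs that chose the members are not subtracted there, but they enter through the TMM factors, the 1 CPM limit for testing and the spread. Since the inputs of the treatments cannot be told apart, a change in recovery by PSF and a change in the amount of RNA in the cells cannot be separated. In bulk libraries, fewer cells with an RNA and less of it per cell also cannot be told apart. By edgeR, 0 of 13321 genes passed an adjusted p of 0.05 (0% called), the smallest being 0.504 and the smallest for a member 0.783. By DESeq2 also 0 genes passed. At an unadjusted p under 0.05 edgeR gave 846 genes (6.35%) and 10 members, all 10 higher with No.10-3. The same direction held for 540 of the 846 genes, and for 303 of the 326 other mRNAs under the same limits that reached this p.

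The members' median log2 No.10-3 over vehicle was 0.40, against 0.24 for other mRNAs under the same limits and 0.04 for all genes tested. The members' median rose with the input level that chose them, from 0.16 at 10 to 12 input CPM to 0.34 at 12 to 20 and 0.55 above 20. Other mRNAs under the same limits had 0.11, 0.18 and 0.33 in those ranges. Outside the limits the median was 0.04 for the ZNF genes tested and -0.05 for other protein-coding mRNAs. The treated libraries differed in the members' change from vehicle. In the first, the members' median change from vehicle was -0.086, and in the second it was 0.56. Without the second library the fitted median was -0.094, and edgeR called 0 members (10 at an unadjusted p under 0.05), where 0.152% of all genes tested were called higher and 0.0456% lower. Without the first it was 0.59, and edgeR then called 16 members higher and 1 lower, where 3.79% of all genes tested were called higher and 2.76% lower, with the lone treated library assumed to vary like the inputs. Both treated libraries were above vehicle for 39 members, as for 33.3% of all genes tested, and both below for 19, as for 32.4%. For members these are 34.8% and 17.0%, and for the other mRNAs under the same limits 45.5% and 18.2%. In 54 members the treated libraries lay on opposite sides or at vehicle.

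ZNF664, ZNF652 and ZNF518B had the largest changes shared by both treated libraries. ZNF664 had 196 and 251 scaled CPM with No.10-3, against 84.4 scaled CPM with vehicle (log2 1.40 ± 0.53, edgeR adjusted p = 0.783). ZNF518B had 46.2 and 86.8 scaled CPM with No.10-3, against 21.5 scaled CPM with vehicle (log2 1.64 ± 0.52, edgeR adjusted p = 0.783). The rule that named these genes required both treated libraries above vehicle, as it did for ZNF652 given above (log2 1.53). Among all genes tested, 33.3% had both above. ZNF623, ZNF805 and ZNF252P followed with log2 values of 1.13, 0.98 and 1.33.

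In the other direction, ZNF331 had 27.7 and 35.1 scaled CPM with No.10-3, against 55.5 scaled CPM with vehicle (log2 -0.81 ± 0.46, edgeR adjusted p = 0.814). ZNF207, a spindle protein that binds BUB3, had 56.2 and 64.0 scaled CPM with No.10-3, against 86.0 scaled CPM with vehicle (log2 -0.52). The rule that named these genes required both treated libraries below vehicle, which held for 32.4% of all genes tested. Also named by it were ZNF266, ZNF558, ZNF589 and ZNF862, whose log2 values were -0.52, -0.40, -0.35 and -0.60. None of these differences passed the test, and a single vehicle library gives no measure of its own spread.

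**Figure D5:**
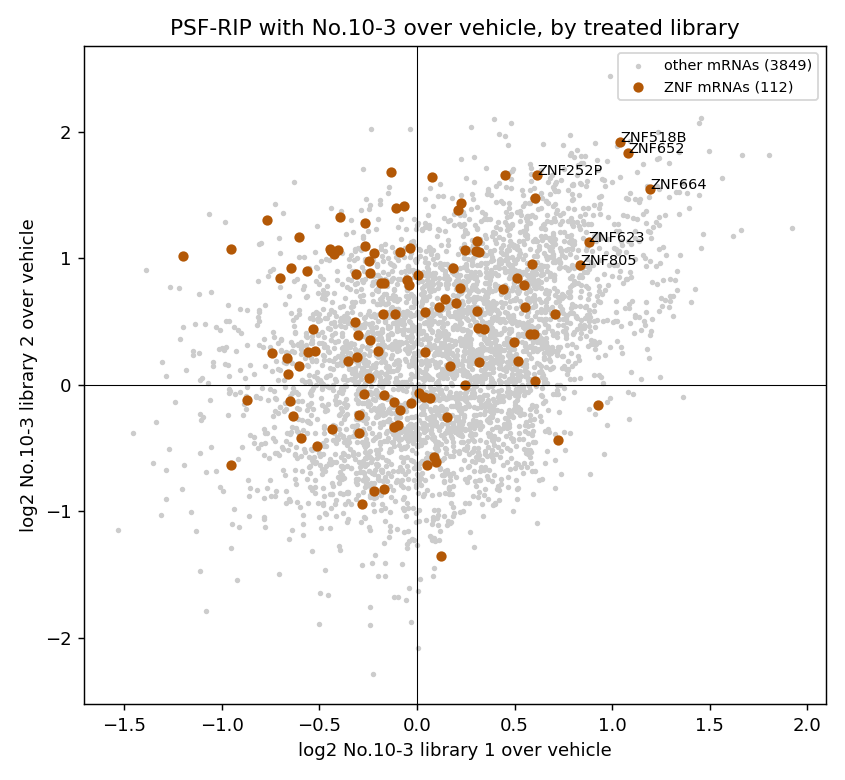
Log2 change from vehicle PSF-RIP in the first (x axis) and second (y axis) No.10-3 PSF-RIP library, for the 112 ZNF mRNAs and 3849 other mRNAs under the same limits, from log2 of scaled CPM plus 2. ZNF points spread around 0 along x (median -0.086) and lie mostly above 0 along y (median 0.56); both axes share the vehicle library, so the points' alignment is partly built in.

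The comparisons of each treatment with input share the inputs and are given side by side. With No.10-3, 20 members were called lower than input and 0 higher, where 6.5% of all genes tested were called lower and 4.98% higher. With vehicle, 35 members were called lower and 2 higher, where 10.4% of all genes tested were called lower and 10% higher.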

How the data were processed

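Stranded Illumina kits were used for the RIP-seq libraries, per the labels. The authors deposited 1 table of whole-number read counts per Entrez gene and library with a gene length, and no per-sample count column was left unused (0). The submitters' processing notes name TopHat2 2.1.0, Bowtie2 2.2.6, Bowtie and hg19, with no role for each. What tool made the counts, with which strand setting and annotation, is not given in the sources used here. Both No.10-3 columns, which do not name PSF, were taken as PSF-RIP by elimination.

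The test took 13321 genes averaging 1 CPM or more over the 5 libraries. edgeR 4.0.16 (R 4.3.3) was fitted to all libraries in 3 groups (quasi-likelihood test, TMM, Benjamini-Hochberg, 2 residual degrees of freedom). With 38.5 prior degrees of freedom, each gene's p-value and standard error rest mostly on spread shared across genes. PSF-RIP over input is the mean of both PSF-RIP groups minus input. The standard error is the log2 change over the square root of F. Changes of single libraries used log2 of scaled CPM plus 2. DESeq2 1.42.0 was an alternative. The scripts were tested on simulated data. Biotypes, chromosomes and gene order came from RefSeq (GRCh38.p14), matched by Entrez ID for 23696 genes.

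The members, the gene lists and the rule for named genes were chosen with earlier results of these data known. Named members are the 12 highest and 8 lowest by PSF-RIP over input, the 6 highest in input, the 6 highest and 6 lowest with No.10-3 by the smaller change of its libraries, and the 2 on each side of a limit. Silencing genes that passed the test are named too. ZNF121, ZNF32, ZNF445, ZNF317 and the members of chromosome 19 runs were named after their values were seen.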

Additional observations from a re-analysis of the deposited data

How the results depend on the processing

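The first values here are for PSF-RIP over input. Library totals in place of TMM gave 0 members called lower and 89 higher, with a median log2 of 1.53, because they move the median of all genes to 2.38, against 0.05. The distance of the members' median from that of other mRNAs stayed between -0.69 and -0.44 under all alternatives, library totals included. DESeq2 called 2 members higher and 34 lower, and over all genes 925 higher and 1266 lower, against 1596 and 1817 by edgeR. An input limit of 5 CPM gave 72 of 247 members lower (29.2%) and 15 higher (6.07%), against 19.8% and 12.5% of other mRNAs under that limit. A limit of 20 CPM gave 22 of 36 lower (61.1%) and 0 higher, against 32.6% and 7.04%. A length limit of 6000 gave 31 of 76 lower (40.8%) and 2 higher (2.63%), against 27.1% and 9.25% of other mRNAs under that limit. No.10-3 alone over input gave 20 lower and 0 higher (6.5% and 4.98% of all genes), and vehicle alone 35 lower and 2 higher (10.4% and 10%). Leaving out 1 library at a time gave 14 to 70 members lower and 0 to 10 higher, and over all genes 550 to 2887 lower and 66 to 2679 higher. For No.10-3 over vehicle, leaving out 1 library gave 0 to 17 members called and a median of -0.094 to 0.59, the lowest of which is without the second No.10-3 library, and over all genes up to 501 higher and 365 lower, without the first. No filter on low counts gave 9 genes lower in that comparison and removing the length trend 25 lower, none of them a member. The named genes that changed sign, relative to the median of all genes, without vehicle or an input or the second No.10-3 library, were ZNF106 (-0.36 to 0.11, against -0.27), ZNF207 (-0.37 to 0.0943, against -0.0801) and ZNF704 (-0.0525 to 0.31, against 0.13), all with adjusted p-values above the threshold in each. For single named genes, 682 values kept their direction and call, 100 lost the call, 30 gained one and 4 changed sign. The cause was not tested. No paired analysis was possible because the input columns carry no treatment and there is 1 vehicle PSF-RIP library. Alternatives chosen after seeing the data were the total over nuclear protein-coding genes (36 members lower, 5 higher) and leaving out the 3 pseudogenes. With that total, 1511 of the 13321 genes tested were called lower and 1814 higher. Counts as low as 10 limit the precision of low members in the first No.10-3 library.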

Other observations

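ZNF genes outside the limits are, for the most part, those of low input level. The 345 of them that were tested had a median log2 PSF-RIP over input of -0.32, against 0.35 for 7512 other protein-coding mRNAs outside the limits. Of these ZNF genes edgeR called 42 lower (12.2%) and 27 higher (7.83%). The shares were 13.6% and 12% of all genes tested, and 6.27% and 15.2% of the other protein-coding mRNAs outside the limits.

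Another family of zinc finger genes, the ZBTB genes, whose proteins join a BTB domain to C2H2 fingers, had 18 genes under the same limits with a median log2 of -0.76. In PSF-RIP over input 7 (38.9%) fell, among them ZBTB33 (Kaiso, which binds methylated DNA) at -1.75 and ZBTB6 at -2.22. Another 3 (16.7%) rose (ZBTB7B at 1.57, ZBTB22 at 1.22 and ZBTB40 at 1.11) and 8 were not called. Over all genes tested 13.6% were called lower and 12% higher, and among the ZNF members 39.3% and 3.57%. No gene of the ZFP (3 genes) or ZKSCAN (1 gene) series under those limits was called.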
